A study of Mus musculus with 55 samples.

Results

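Biliary epithelial cells (BEC) sorted from mouse liver after partial hepatectomy (PH, surgical removal of part of the liver) were compared with BEC sorted from normal liver, across all genes of the deposited expression table. The members are 6 of the 55 libraries of the series, 4 titled normal BEC and 2 titled PH BEC, taken by their titles. All 6 came from liver of C57B/L6 mice, and the labels give normal or partial hepatectomy as the treatment. RNA was extracted from sorted cells and measured by RNA sequencing, and values are FPKM, that is, fragments scaled to transcript length and library size. The labels give no time after surgery, sex, age or sort gate, and do not say whether a library is 1 animal or a pool, so p-values here measure the spread between these libraries. The other sorts used for comparison were clonal BEC (cBEC, 4 normal and 2 PH libraries), ducts without progenitor activity (NPD, 2 and 2) and hepatocytes (HC, 4 and 4), together with Kupffer cells (KC, the macrophages of the sinusoid), the endothelium of the sinusoids (LSEC), other endothelial cells (EC), blood cells, Thy1 cells and the stellate cells (HSC) that store vitamin A.

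BEC line the bile ducts inside the liver. They secrete chloride and bicarbonate into bile through channels such as Cftr, and they sense bile flow with a primary cilium. They depend on Notch and Yap signalling for their identity, and in injured liver they can send chemokines and growth factors to macrophages and to fibroblast-like cells around the duct. After PH the remaining liver regrows mainly by division of its mature cells, each type on its own schedule.

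The 6 libraries carried the duct identity that their label states. Spp1, which encodes osteopontin, was at 17570, 18338, 13817 and 20522 FPKM in the 4 normal libraries and at 17157 and 18754 in the PH libraries, and Epcam, a surface adhesion protein of duct cells, was at 409, 365, 321 and 412 and at 352 and 381. Krt19, a duct keratin, was at 383, 857, 247 and 319 FPKM in normal and 499 and 382 in PH libraries, and Sox9, a transcription factor of duct cells, was at 135, 108, 130.2 and 144 in normal and 147 and 189 in PH BEC. The groups overlapped for the first 3 of these and not for Sox9, whose log2 change of 0.37 (SE 0.20) did not pass (limma adjusted p 0.420). Between 15670 and 16067 of 24478 gene symbols were above 0 in the normal libraries, against 15505 and 13975 in the PH libraries, and the read depth is unknown. The correlation of log2(FPKM + 1) was 0.919 to 0.971 among normal libraries and 0.972 between the PH libraries. Exact zeros were most frequent for the transcripts that were most abundant in hepatocytes. For genes that reached 10 FPKM in 5 or more of the other groups, the share of zeros was 0.145% in normal BEC and 3.16% in PH BEC below a hepatocyte level of 10 FPKM. At hepatocyte levels of 10 to 100 FPKM it was 0.685% and 0.933%, and at 100 to 1000 FPKM it was 5.86% and 4.31%. From a hepatocyte level of 1000 FPKM on, with 30 genes, it was 33.3% and 36.7%. In PH BEC the share was thus lowest at 10 to 100 FPKM and did not rise steadily. Of the 7 hepatocyte markers 6, Alb among them, were listed at 0 in all 6 libraries, and Hnf4a, a transcription factor of hepatocytes, was at 11.8, 8.19, 9.97 and 8.21 FPKM in normal and 9.53 and 9.12 in PH BEC. Genes under 10 FPKM in both hepatocyte groups are therefore counted apart, and a gene above that limit that passed is named with its hepatocyte level.

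Over all genes, fewer were higher than lower after PH. Of 12851 genes with at least 1 FPKM in at least 2 of the 6 libraries, 232 (1.81%) differed at a Benjamini-Hochberg adjusted p under 0.05 (limma on log2(FPKM + 1), a scale that understates changes of low genes). Of these, 30 (0.233%) were higher and 202 (1.57%) lower, the 2 groups of libraries did not overlap for any of the 232, and the median change of all genes was -0.12. With or without a call, both PH libraries lay above all normal libraries for 5.29% of the genes tested and below all of them for 22%. Quantile normalization moved that median to 0.03 and gave 62 calls, 25 higher and 37 lower. At an unadjusted p under 0.05 there were 2097 genes. The 168 calls among genes low in hepatocytes comprised 10 rises and 158 falls, and the 64 among the others comprised 20 rises and 44 falls. With the test restricted to the 8465 genes under 10 FPKM in hepatocytes, 280 (3.31%) passed, 23 higher (0.272%) and 257 lower (3.04%). With only PH library 2 or only PH library 1 in the fit, 6 genes passed either way, and the spread then comes from the normal libraries alone. The count also moved with the normal libraries, to 134 without normal library 1, 387 without normal library 2 and 695 with normal libraries 2 and 3 left out together, a setting chosen after seeing the data.

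The tested genes were sorted by the population with the highest mean in normal liver. Of 884 genes highest in KC 47 passed (5.32%), 46 of them lower in PH BEC, and of 798 highest in LSEC 32 passed (4.01%), all lower. Of 3606 genes highest in blood cells 38 passed (1.05%), all lower, and of 1050 highest in hepatocytes 34 (3.24%), 19 higher and 15 lower. Genes highest in KC, LSEC, EC or blood together gave 127 calls among 5853 tested (2.17%), near the 1.81% of all genes, and 125 of these were lower. Genes highest in a duct sort (BEC, cBEC or NPD) gave 45 calls among 4625 tested (0.973%), 7 higher and 38 lower. By sort, 16 of 1982 genes highest in BEC passed (0.807%), 6 of 1688 in cBEC (0.355%) and 23 of 955 in NPD (2.41%). Among the 20 falls of genes highest in NPD were the mesothelial markers Upk3b and Msln. These were at 2027 and 1811 FPKM in normal NPD and at 7.30 and 7.14 in normal BEC. When p-values were adjusted over those 4625 genes alone, 13 passed (0.281%), 3 higher (0.0649%) and 10 lower (0.216%).

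**Figure D1:**
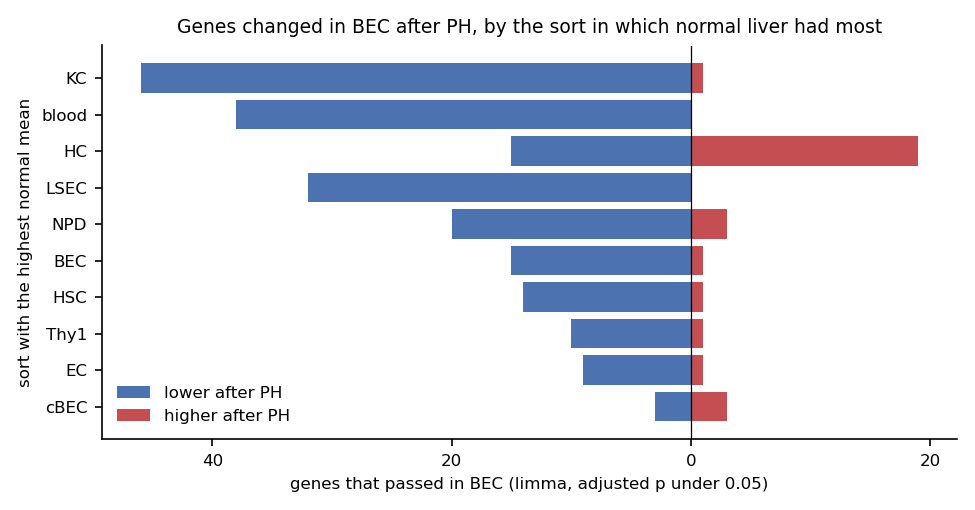
Number of genes that were higher (right) or lower (left) in BEC after PH at a limma adjusted p under 0.05, by the sorted population with the highest mean FPKM in normal liver. Genes highest in KC gave 46 falls and 1 rise, and genes highest in hepatocytes (HC) gave 19 rises and 15 falls.

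The rises among genes low in hepatocytes included secreted signals. Ccl2, the chemokine that draws monocytes (table coordinates, mm9 per the submitters' processing notes: chromosome 11, 81849078 to 81850954, plus strand), was at 5.13, 7.23, 5.41 and 5.04 FPKM in normal BEC and at 16.9 and 28.02 FPKM in PH BEC, a change of 1.78 in log2 (SE 0.25, limma adjusted p 0.0149). Both PH libraries stood above every normal library, and PH library 2 was the higher. Il34, a ligand of the Csf1 receptor (mm9 chromosome 8, 113265728 to 113329824, minus strand), was at 6.25, 5.21, 4.10 and 4.54 FPKM and then at 12.7 and 12.4 FPKM, a change of 1.18 in log2 (SE 0.21, limma adjusted p 0.0346). Pdgfb, a growth factor for stellate cells and fibroblasts (mm9 chromosome 15, 79826305 to 79845238, minus strand), was at 20.7, 27.1, 26.7 and 20.6 FPKM and then at 42.0 and 52.0 FPKM, a change of 0.96 in log2 (SE 0.19, limma adjusted p 0.0469). The PH libraries lay close together for Il34 and further apart for Pdgfb, and for both genes they lay above every normal library. Among normal sorts Ccl2 was highest in KC (75.5 FPKM), Il34 in HSC (142 FPKM) and Pdgfb in EC (31.6 FPKM). In the same PH libraries the summed level of the 12 Kupffer and macrophage markers was 47.1 to 53.2 FPKM, below the 220 to 647 FPKM of the normal libraries, the 8 stellate markers summed to 201 to 274 against 143 to 315, and the 8 endothelial markers to 16.4 to 17.3 against 58.0 to 178. The stellate sum did not follow the median of these 8 markers, taken as a share of the level in sorted normal HSC. That median was 0.537, 0.346, 0.245 and 0.568% in the 4 normal libraries and 0.0831 and 0.151% in the PH libraries. The highest stellate share was 13.9 to 34.7% in normal and 25.5 and 34.0% in PH libraries. The part of Kupffer, stellate and endothelial cells in these rises was not tested.

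Other rises were in epithelial and cytoskeletal genes. Cftr, the chloride channel of bile secretion (mm9 chromosome 6, 18120686 to 18272769, plus strand), was at 16.1, 23.3, 25.1 and 24.4 FPKM in normal and 43.3 and 51.3 FPKM in PH BEC, a change of 1.07 in log2 (SE 0.21, limma adjusted p 0.0459). Both PH values were well above all normal values, of which that of normal library 1 was the lowest. Cdh6, a cadherin of developing epithelia, was at 21.7, 28.04, 28.3 and 28.8 FPKM and then at 55.2 and 50.2 FPKM, a change of 0.96 in log2 (SE 0.17, limma adjusted p 0.0361). Basp1, a membrane-associated protein that also acts on transcription, was at 7.50, 8.06, 8.15 and 7.81 FPKM and then at 22.4 and 26.3 FPKM, a change of 1.51 in log2 (SE 0.17, limma adjusted p 0.00602). The normal values of Basp1 lay close together, far below both PH values. Eppk1, a protein that binds keratin filaments, was at 11.4, 8.99, 10.4 and 7.03 and then 23.5 and 18.9 FPKM (1.10, SE 0.22, limma adjusted p 0.0483), and Mical2, an enzyme that oxidises actin, was at 4.64, 4.95, 5.59 and 3.42 and then 12.4 and 10.3 FPKM (1.13, SE 0.23, limma adjusted p 0.0477). Cftr was highest in normal BEC of all normal sorts, Cdh6 and Eppk1 in cBEC, and Basp1 (148 FPKM) and Mical2 (57.3 FPKM) in NPD. The last rises in this class were 2 small nucleolar or Cajal body RNAs, Scarna17 and Snord16a. Of the 8 genes described, Ccl2 and Basp1 passed whichever normal library was left out. Without normal library 1 the other rises except Il34 did not pass (adjusted p 0.0714 to 0.122), and without normal library 4 none of the other 6 passed (0.0683 to 0.105).

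**Figure D2:**
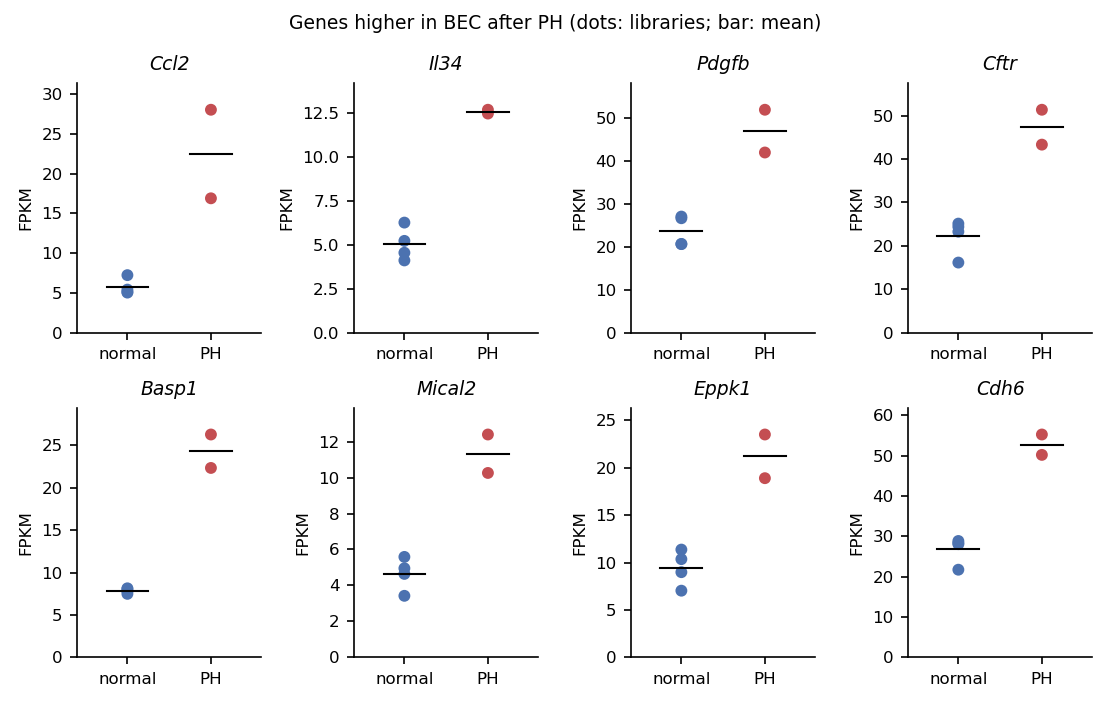
FPKM of 8 genes that rose in BEC after PH, with 1 dot for each library (4 normal in blue, 2 PH in red) and a bar at the group mean. For each gene both PH libraries lie above all 4 normal libraries, as for Il34 at 12.7 and 12.4 against 4.10 to 6.25 FPKM.

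Several further ligands had both PH libraries above the normal range without passing over all genes. Lif, a cytokine of the Il6 family, was at 6.48, 8.46, 5.04 and 4.54 FPKM in normal and 17.3 and 14.0 in PH BEC, a log2 change of 1.25 (limma adjusted p 0.0512). Tgfb2, a ligand of the TGF-beta family, was at 32.1, 21.6, 33.2 and 32.6 in normal and 59.3 and 57.6 FPKM in PH BEC (0.97, limma adjusted p 0.0583), and Csf1, the main macrophage growth factor, at 12.4, 14.7, 12.1 and 8.85 in normal and 20.5 and 30.5 FPKM in PH BEC (1.02, limma adjusted p 0.0771). Jag1, a Notch ligand, was at 101, 93.8, 61.6 and 82.6 in normal and 137 and 148 FPKM in PH BEC (0.76, limma adjusted p 0.141). With the test restricted to genes low in hepatocytes, Lif and Tgfb2 passed (limma adjusted p 0.0362 and 0.0403) and Csf1 and Jag1 did not. In the list of 48 growth factor ligands, 36 were tested, 2 rose (Il34 and Pdgfb), 1 fell (Bmp2), and the median change was 0.02 against -0.12 for all genes. Bmp2 was at 4.99, 9.61, 21.3 and 5.20 FPKM and then at 0.521 and 0.508 (-2.68, SE 0.50, limma adjusted p 0.0389), and its highest normal sort was LSEC (442 FPKM). It did not pass without normal library 1 or 2 (adjusted p 0.0501 and 0.0772). Of 32 growth factor receptors 29 were tested, and 1 rose (Egfr) and 1 fell (Kdr, an endothelial receptor). Egfr, the receptor of Egf, had 6.56 and 4.84 FPKM in PH BEC and was listed at 0 in all normal BEC libraries, and hepatocytes had 207 FPKM of it in normal and 153 in PH liver. Wnt4, Hbegf, Tgfa, Vegfa and Pdgfd were at 24.2 to 266 FPKM in every library, and none passed.

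Among targets of the Yap and Taz co-activators, which respond to cell shape and tension, no gene rose, although most changes were positive. Of 18 tested, 16 had a positive change, the median was 0.31 against -0.12 for all genes, and the 1 call was the fall of Axl. Ankrd1, a nuclear protein induced by stretch, was at 473, 721, 346 and 391 FPKM in normal and 1524 and 1032 in PH BEC (1.43, SE 0.32, limma adjusted p 0.0686), and Ctgf, a matrix-associated growth regulator, was at 289, 412, 164 and 184 in normal and 658 and 749.7 in PH BEC (1.52, SE 0.36, limma adjusted p 0.0800). Both PH libraries were above all normal libraries for 11 of the 18, against 5.29% of all genes tested. Ankrd1 passed in the test restricted to genes low in hepatocytes (limma adjusted p 0.0476). Axl, a receptor that macrophages use to take up dying cells, was at 4.76, 6.04, 9.33 and 2.70 FPKM and then at 0.108 and 0.641 (-2.22, SE 0.40, limma adjusted p 0.0358), and sorted KC had 402 FPKM of it. The Axl call was lost without normal library 1 or 2 (adjusted p 0.0832 and 0.0509). The 23 immediate early genes gave no call, with 18 positive and a median of 0.36: Egr1 was at 2405, 1820, 1828 and 2036 in normal and 3050 and 1763 FPKM in PH BEC and Atf3 at 1426, 2525, 686 and 951 in normal and 2742 and 1597 FPKM in PH BEC, with the PH libraries apart from each other.

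None of the genes that define the duct cell passed the test. In a list of 24 biliary identity genes 23 were tested and none passed, 18 of the changes were positive, and the median was 0.12. The lowest and highest changes, at -0.65 for Tff2 (limma adjusted p 0.241) and 0.96 for Cldn4 (limma adjusted p 0.332), both missed the threshold. Without normal library 2, Cldn4 and Krt7 passed as higher. The duct keratins Krt7 (normal 123, 239, 104 and 110.1 FPKM, PH 200.1 and 201) and Krt18 (normal 1387, 2279, 989.7 and 1170, PH 2153 and 1814) were highest in normal library 2. Of 16 junction genes and 14 genes of the primary cilium and cystic disease none passed, with medians of 0.17 and 0.07. Pkhd1, the gene of recessive polycystic disease, was at 206, 128, 186 and 165 in normal and 158 and 171 FPKM in PH BEC. In the Notch pathway none of 14 tested genes passed, 12 were negative, and the median was -0.26 (0.02 after quantile normalization). Hes1, a Notch target, was at 784, 769, 445 and 851 FPKM in normal and 792 and 746 in PH BEC.

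Of the 15 tested genes for the modification of bile, Cftr rose and Aqp1 fell. Slc10a2, the bile acid importer, was at 1.88, 4.57, 6.32 and 4.92 FPKM in normal and at 11.9 and 10.2 in PH BEC (1.23, SE 0.35, limma adjusted p 0.134), and Sctr, the secretin receptor, was at 21.8, 15.04, 25.9 and 19.9 in normal and 38.7 and 24.6 in PH BEC (0.58, limma adjusted p 0.303). Slc4a2, the chloride and bicarbonate exchanger, was at 53.0, 66.8, 52.2 and 49.6 in normal and 58.4 and 55.1 FPKM in PH BEC, and its groups overlapped. Aqp1, a water channel of duct and endothelial cells, was at 42.1, 137, 127 and 34.4 FPKM and then at 0.961 and 3.89, a change of -4.54 in log2 (SE 0.65, limma adjusted p 0.0213). Its normal values followed those of the LSEC markers, high in normal libraries 2 and 3, and sorted LSEC had 3400 FPKM. The call was lost without normal library 2 or normal library 3 (adjusted p 0.0519 and 0.0676).

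The largest falls among genes low in hepatocytes were of macrophage and sinusoidal endothelial genes. Lyz2, the lysozyme of macrophages (mm9 chromosome 10, 116714596 to 116719328, minus strand), was at 21.9, 84.6, 87.0 and 27.6 FPKM in the normal libraries and at 0 and 0.281 FPKM in the PH libraries (change of -5.38 in log2, SE 0.57, limma adjusted p 0.00660). C1qa, a chain of complement C1q, was at 19.7, 60.4, 56.2 and 19.1 FPKM and then at 0.195 and 0 (-4.99, SE 0.49, limma adjusted p 0.00350), and Clec4f, a lectin that marks Kupffer cells, was at 30.1, 71.6, 85.8 and 19.9 and then 0.158 and 0.804 (-4.96, SE 0.56, limma adjusted p 0.00880). In each of these, normal libraries 2 and 3 were higher than normal libraries 1 and 4, and both PH libraries were under 1 FPKM. Of the 12 Kupffer and macrophage markers 10 fell, against 1.57% of all genes tested. Both PH libraries were below all normal libraries for all 12, against 22% of all genes tested. Adgre1 and Timd4 were listed at 0 in both PH libraries. They entered the test through the normal libraries alone, which fixed their place in that count in part. As a share of the level in sorted normal KC, the median of the 12 markers was 0.657, 1.62, 1.95 and 0.503% in the 4 normal BEC libraries and 0.000335 and 0.0251% in the PH libraries. Csf1r, the receptor of Csf1 and Il34, did not follow the others: it was at 83.7, 75.5, 109 and 71.7 FPKM in normal and at 50.2 and 40.6 in PH BEC (-0.88, limma adjusted p 0.0823), and it made up most of the summed marker level that remained in PH.

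Endothelial markers fell as well. Clec4g, a lectin of sinusoidal endothelium (mm9 chromosome 8, 3716070 to 3720651, minus strand), was at 32.1, 147, 119.6 and 37.9 FPKM and then at 0 and 1.91 (-5.34, SE 0.71, limma adjusted p 0.0176), and the scavenger receptor Stab2 was at 8.54, 23.7, 30.3 and 8.13 and then 0.233 and 0.391 (-3.62, SE 0.51, limma adjusted p 0.0152). Of 8 LSEC markers 6 fell and of 8 general endothelial markers 3 fell (Kdr, Cdh5 and Pecam1), with medians of -3.71 and -2.43. Over all genes tested 1.57% fell, and the median was -0.12. Kdr, the main Vegfa receptor, was at 10.6, 27.8, 43.4 and 9.20 FPKM and then at 0.233 and 0.165, and Pecam1, an endothelial junction protein, at 5.73, 19.6, 17.8 and 4.77 and then 0.172 and 0.550. The 8 LSEC markers summed to 106 to 402 FPKM in normal and 9.61 to 13.6 FPKM in PH BEC, and none was at 0 in both PH libraries. The median LSEC marker stood at 1.06 to 3.74% of sorted LSEC in the normal libraries and at 0.0207 and 0.0558% in the PH libraries. Other falls of this kind were of Gpihbp1, which anchors lipoprotein lipase to capillaries (12.8, 93.4, 56.1 and 18.3 FPKM, then 0 and 1.56), Wfdc17 (13.2, 56.7, 31.1 and 7.996 FPKM, then 0 in both), and Fcgr2b, an inhibitory Fc receptor (18.1, 61.7, 90.5 and 23.3 FPKM, then 0 and 1.35). With normal libraries 2 and 3 left out, all 12 Kupffer and all 8 LSEC markers passed, with medians of -3.46 and -2.91. That setting was chosen after seeing the data, and 695 genes passed in it. The normal libraries that remained, 1 and 4, correlated most closely of all normal libraries (0.971), so these passes give no separate support. Leaving out normal library 2 ended the calls of Fcgr2b, Aqp1, Gpihbp1 and Bmp2 (adjusted p 0.0519 to 0.0772), leaving out normal library 3 those of Clec4g, Aqp1, Wfdc17 and Gpihbp1 (0.0676 to 0.140), and leaving out normal library 4 that of Gpihbp1 (0.0931). In bulk libraries, fewer cells of a type and less RNA per cell cannot be told apart.

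**Figure D3:**
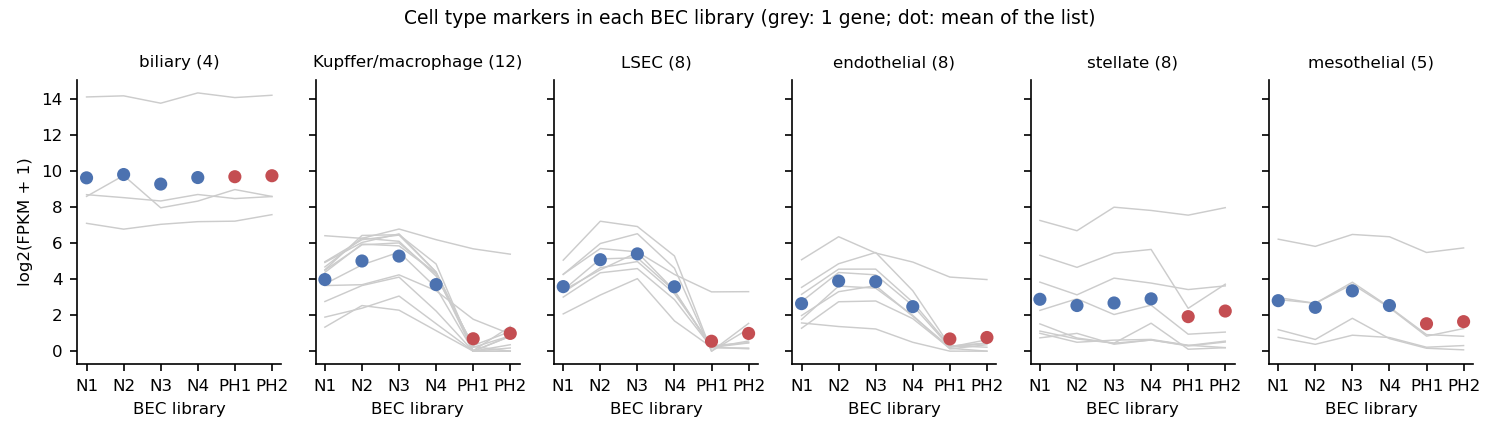
Marker genes of 6 cell types in each BEC library (N1 to N4 normal, PH1 and PH2 after PH), on a log2(FPKM + 1) axis. Grey lines are single genes and dots the mean of each list: the biliary mean is between 9.27 and 9.80 in all 6 libraries, whereas the Kupffer mean falls from 3.69 to 5.27 in normal to 0.69 and 0.99 in PH libraries.

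Several of the genes that fell in BEC were higher in the hepatocyte sort after PH than before. Counted over whole marker lists, whether or not a marker fell in BEC, the mean was higher in PH than in normal hepatocytes for 11 of the 12 Kupffer markers, all 8 LSEC markers, 7 of the 8 endothelial markers and all 8 stellate markers. It was higher for none of the 7 portal fibroblast or 5 mesothelial markers and for 1 of the 7 lymphocyte markers. Among the 158 falls of genes low in hepatocytes, 107 (67.7%) had a higher mean in PH than in normal hepatocytes, against 4080 of the 8465 such genes tested (48.2%). Zeros in BEC were most frequent at the highest hepatocyte levels, but in PH BEC their share did not rise steadily with that level. Hepatocyte values are given beside only some of the falls. In normal and PH hepatocytes C1qa was at 1.06 and 5.78 FPKM, Clec4f at 0.32 and 5.11, and Clec4g at 1.845 and 9.18. The part of the hepatocyte levels in the falls was not tested. The 51 falls whose hepatocyte mean was not higher after PH included Lyz2 (7.55 FPKM in normal and 6.07 in PH hepatocytes), Upk3b and the cilium genes Nme5 and Morn4.

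Immune response genes fell in part. Of all genes tested 1.57% fell and 0.233% rose, with a median change of -0.12. In the list of complement C1q and Fc receptor genes 7 of 9 fell, with a median of -3.42. The C1q chains are also among the Kupffer markers, so this count overlaps the Kupffer count above. Fcer1g, an adaptor of myeloid receptors, was at 5.38, 14.8, 16.3 and 6.11 FPKM in normal and 0.104 and 0 in PH BEC, and Tyrobp, another, was at 10.3, 36.1, 21.5 and 11.3 in normal and 0.987 and 0.495 in PH BEC. Of 20 interferon response genes tested 2 fell, 19 changes were negative, and the median was -0.75. Igtp, an interferon-induced GTPase that fell, was at 55.6, 49.0, 69.0 and 39.4 FPKM in normal and 19.4 and 23.6 in PH BEC (-1.25, SE 0.23, limma adjusted p 0.0385). Its PH values were well above 0 and below every normal value, and hepatocytes had 19.5 FPKM in normal and 27.2 in PH liver. Igtp did not pass without normal library 1 (adjusted p 0.103). All 7 genes of MHC class II were lower in both PH libraries than in any normal library, against 22% of all genes tested, and none passed: Cd74, the invariant chain, was at 198, 147, 334 and 125 in normal and 98.7 and 52.8 FPKM in PH BEC (limma adjusted p 0.145). Of 20 tested NF-kB and inflammatory genes 1 rose (Ccl2) and 3 fell (Lcn2, Il1b and Ccl5). Il1b was at 4.32, 8.39, 9.24 and 3.80 FPKM and then at 0.0860 and 0, and Ccl5 at 1.754, 4.02, 2.69 and 2.16 and then 0.0205 and 0, while Cxcl16 (48.3, 80.8, 45.1 and 36.5, then 65.2 and 85.3) and Nfkb2 (43.4, 52.3, 39.9 and 40.0, then 53.6 and 56.6) did not pass. Igtp and Ccl5 were highest in blood cells among normal sorts. Markers of lymphocytes summed to 3.43 to 15.9 FPKM in normal and 0.0437 to 0.160 FPKM in PH BEC, with 4 of the 7 at 0 in both PH libraries. Their part in these falls was not tested.

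Genes of mesenchymal and mesothelial cells fell from low levels. Dcn, a matrix proteoglycan of stellate cells and fibroblasts, was at 38.9, 24.1, 42.2 and 49.0 FPKM and then at 4.19 and 12.1 (-2.22, SE 0.39, limma adjusted p 0.0324). Upk3b, of the mesothelium that covers the liver, was at 6.27, 5.31, 13.2 and 4.45 FPKM in normal and 0.890 and 0.772 in PH BEC (limma adjusted p 0.0358). Msln, also of mesothelium, was at 6.87, 5.28, 12.1 and 4.32 FPKM in normal and 0.782 and 1.38 in PH BEC (limma adjusted p 0.0426). In normal liver these genes were highest in the NPD sort, at 2027 and 1811 FPKM. Igfbp6, which binds Igf2, was at 9.43, 8.36, 16.8 and 6.45 FPKM and then at 0.389 and 0.379 (-2.95, SE 0.33, limma adjusted p 0.00703), and it was also highest in NPD (2762 FPKM). Of 5 tested stellate markers 2 fell (Dcn and Colec11), of 5 portal fibroblast markers 1 fell (Eln), and of 4 mesothelial markers 2 fell, with medians of -0.91, -1.50 and -1.43. Over all genes tested 1.57% fell, and the median was -0.12. In the matrix list 2 of 22 fell, the collagen chains Col6a2 (5.52, 3.16, 2.98 and 5.02 FPKM, then 0.380 and 0.0308) and Col3a1 (14.0, 5.91, 10.4 and 22.03, then 0.327 and 2.23). Slpi, a secreted protease inhibitor, was at 9.83, 8.97, 40.9 and 8.63 FPKM and then at 0 and 0.139, with 2.26 FPKM in normal and 18.7 in PH hepatocytes. Without normal library 1 the calls of Dcn, Colec11, Upk3b, Msln and Col3a1 were lost, with Dcn and Col3a1 also lost without normal library 3, and Dcn, Colec11 and Col3a1 without normal library 4 (adjusted p 0.0556 to 0.111).

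Some genes of mitosis fell in BEC after PH, and no gene of DNA replication passed. Top2a, the topoisomerase of dividing cells, was at 4.41, 5.84, 2.89 and 5.06 FPKM in normal BEC and at 0.0290 and 0 FPKM in PH BEC (-2.42, SE 0.28, limma adjusted p 0.00813). Ccna2, the cyclin of S phase and G2, was at 5.47, 6.46, 4.24 and 5.72 FPKM and then at 1.45 and 1.36 (-1.42, SE 0.23, limma adjusted p 0.0243). Cdk1 (2.21, 4.08, 1.51 and 2.13 FPKM) and Aurka (1.63, 3.38, 1.74 and 1.746 FPKM), kinases of mitosis, were listed at 0 in both PH libraries, and Nusap1, a spindle protein, was at 2.08, 2.23, 1.74 and 3.07 and then 0.222 and 0.295 FPKM. Of 18 tested mitosis genes these 5 fell, against 1.57% of all genes tested. All 18 were negative, and the median was -1.37 against -0.12 for all genes. All 18 had both PH libraries below all normal libraries, against 22% of all genes tested, but 6 of them were at 0 in both PH libraries. Genes under 1 FPKM in both PH libraries entered the test through the normal libraries alone. That fixed these counts in part, so they support no statement on the group. Of 27 tested genes of DNA replication none passed, 26 were negative, and the median was -0.63: Pcna, the polymerase clamp, was at 39.5, 54.6, 30.4 and 50.7 in normal and 35.7 and 25.5 FPKM in PH BEC. Without normal library 1 or 4, Top2a alone of the 5 mitosis genes passed (the others at 0.0599 to 0.106). All 22 listed mitosis genes had a higher mean in PH than in normal hepatocytes (for Top2a 10.5 against 0.603 FPKM, and for Cdk1 over 10 FPKM against 1.46), and none was highest in a duct sort in normal liver. The part of these levels in the falls was not tested. The G1 cyclin Ccnd1 was at 351, 325, 198 and 232 FPKM in normal and 339.8 and 347 in PH BEC and did not pass (limma adjusted p 0.602).

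The change of division genes differed between BEC and NPD. In a fit of the 16 libraries of the 3 duct sorts, the change after PH differed between BEC and NPD in 918 of 14491 genes (6.33%), with 173 higher in BEC (1.19%) and 745 lower (5.14%). Uhrf1, which maintains DNA methylation in S phase, was at 4.64, 5.30, 1.89 and 4.20 FPKM in normal and 2.32 and 2.30 in PH BEC, and at 0 and 0.337 in normal and 38.6 and 31.1 FPKM in PH NPD, a difference of responses of -5.48 (SE 0.45, limma adjusted p 1.44e-05). Top2a was at 4.08 and 0.286 FPKM in normal and 41.1 and 20.1 FPKM in PH NPD, a difference of -5.96 (SE 0.76, limma adjusted p 0.000398). Of the 30 replication genes tested there 28 were lower in the BEC response, and of the 22 mitosis genes 16. The median change of the replication list was 2.27 in NPD and -0.12 in cBEC, and that of the mitosis list 1.82 and -0.99. The NPD sort also held high levels of mesothelial markers. Msln was at 1811 FPKM in normal and 1521 in PH NPD, and Upk3b at 2027 and 1033. The part of mesothelial and other non-duct cells in the NPD changes was not tested. Outside division genes, Serpinb2, a protease inhibitor, reached 223 and 168 FPKM in PH NPD and 0.119 and 0.130 FPKM in PH BEC, and Actn1, an actin crosslinker, was at 29.8 and 25.02 and then 243 and 238 FPKM in NPD and at 74.7, 60.8, 62.1 and 59.1 and then 94.1 and 102 FPKM in BEC (-2.49, SE 0.23). The count was 417 without PH BEC library 1, 366 without PH BEC library 2, 253 without PH NPD library 1 and 370 without PH NPD library 2.

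**Figure D4:**
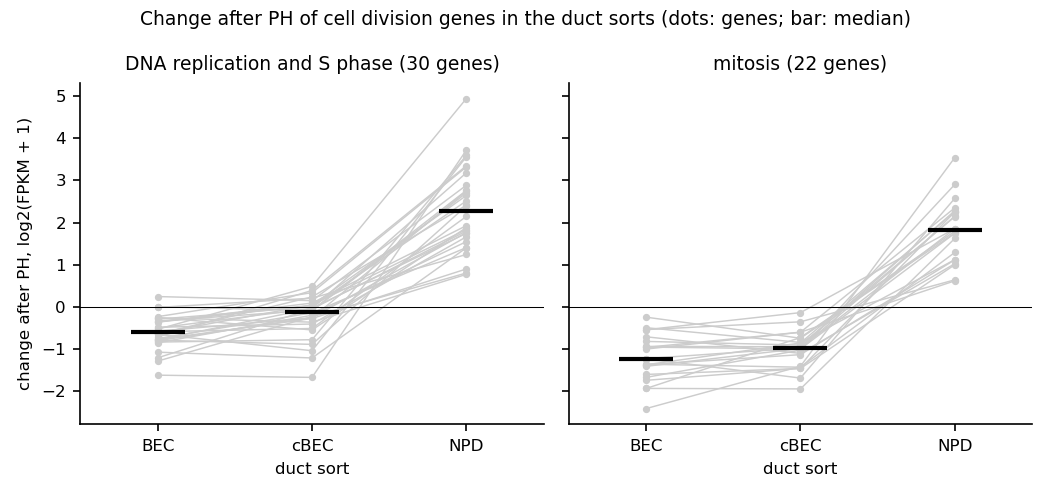
Change after PH on the log2(FPKM + 1) scale of 30 replication genes (left) and 22 mitosis genes (right) in the 3 duct sorts, with 1 dot and line per gene and a bar at the median. The NPD medians are 2.27 and 1.82, and all mitosis genes lie below 0 in BEC and cBEC.

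Some genes of the motile axoneme, the microtubule core of beating cilia, fell in PH BEC. This list of 38 genes was chosen after the values were seen, because several of the falls highest in a duct sort belonged to it. Of 37 found in the table, 34 were highest in a duct sort in normal liver, so that other sorts hold less of them, and 27 were tested. Of these 6 fell and none rose, where 1.57% of all genes tested fell. All 27 changes were negative, with a median of -0.90 against -0.12 for all genes, which the choice of the list fixed in part and which supports no statement on the group. The promoters of the 5 fallen genes that the RefSeq promoter table (GRCm38.p6, 250 bases before to 50 after the start) holds are shown because these genes fell together and cilium genes are known targets of Rfx factors, which bind the X-box. Capitals mark the X-box half-site GTTGCC, searched on both strands:
Spag6l promoter (chr16:16829314-16829613, minus strand): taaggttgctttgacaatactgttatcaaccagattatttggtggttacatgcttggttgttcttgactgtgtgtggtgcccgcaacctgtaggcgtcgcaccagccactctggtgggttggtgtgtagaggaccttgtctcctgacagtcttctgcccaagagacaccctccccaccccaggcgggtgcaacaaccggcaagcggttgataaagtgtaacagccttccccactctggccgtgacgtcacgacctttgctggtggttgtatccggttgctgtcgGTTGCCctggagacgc
Ppil6 promoter (chr10:41490189-41490488, plus strand): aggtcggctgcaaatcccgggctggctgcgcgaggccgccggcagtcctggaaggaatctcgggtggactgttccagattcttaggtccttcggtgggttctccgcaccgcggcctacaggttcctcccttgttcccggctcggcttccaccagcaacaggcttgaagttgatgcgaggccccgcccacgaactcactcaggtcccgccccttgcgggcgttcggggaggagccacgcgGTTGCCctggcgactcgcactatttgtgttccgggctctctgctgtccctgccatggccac
Morn4 promoter (chr19:42086321-42086620, minus strand): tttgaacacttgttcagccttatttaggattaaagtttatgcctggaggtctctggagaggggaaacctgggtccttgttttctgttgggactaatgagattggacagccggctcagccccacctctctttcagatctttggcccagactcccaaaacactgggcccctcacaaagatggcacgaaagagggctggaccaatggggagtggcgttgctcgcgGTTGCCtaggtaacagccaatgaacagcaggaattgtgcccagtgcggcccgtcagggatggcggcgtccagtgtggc
Tctex1d2 promoter (chr16:32419452-32419751, plus strand): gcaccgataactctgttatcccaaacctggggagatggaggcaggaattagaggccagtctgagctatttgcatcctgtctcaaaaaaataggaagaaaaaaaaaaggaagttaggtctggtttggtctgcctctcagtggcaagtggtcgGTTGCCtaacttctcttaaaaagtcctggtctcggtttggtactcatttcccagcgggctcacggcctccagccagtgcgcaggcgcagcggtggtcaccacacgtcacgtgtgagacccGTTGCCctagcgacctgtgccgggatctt
Iqub promoter (chr6:24515018-24515317, minus strand): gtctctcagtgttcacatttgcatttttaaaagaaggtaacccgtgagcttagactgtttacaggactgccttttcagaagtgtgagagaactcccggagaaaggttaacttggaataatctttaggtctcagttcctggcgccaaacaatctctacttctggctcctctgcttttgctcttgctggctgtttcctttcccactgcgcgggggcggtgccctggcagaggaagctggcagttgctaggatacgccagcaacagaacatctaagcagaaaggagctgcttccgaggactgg
The half-site is in 4 of these 5 windows, in 18 of the 29 listed genes with a promoter in the table, and in 12.5% of all 32851 promoters. In all, 6 spellings of the X-box were searched, and the others were in 0 to 3 of the 5 windows. The most complete 14-letter consensus is in the Morn4 window and in 0.451% of all promoters. A match describes these letters only.

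Nme5, a protein of the radial spoke, was at 29.5, 27.0, 24.3 and 38.7 FPKM in normal and 12.5 and 14.3 FPKM in PH BEC (-1.08, SE 0.21, limma adjusted p 0.0426). Spag6l, of the central pair of the axoneme, was at 4.96, 3.80, 3.59 and 5.26 FPKM and then at 1.32 and 0.896 (-1.35, SE 0.24, limma adjusted p 0.0358). Ppil6 was at 19.8, 16.3, 18.7 and 21.4 and then 9.68 and 9.68 FPKM, Morn4 at 18.5, 17.3, 16.4 and 21.9 and then 10.0 and 8.77, Tctex1d2, a dynein light chain, at 25.6, 22.01, 27.7 and 31.2 and then 14.2 and 13.3, and Iqub at 2.60, 1.72, 3.27 and 3.21 and then 0.458 and 0.327. For all 6 genes both PH libraries lay below every normal library, and the PH values lay close to each other. Tctex1d2 was not confined to the duct sorts, at 10.2 FPKM in normal KC and 13.2 in normal Thy1 cells. Foxj1, the transcription factor that switches on motile cilium genes, was at 87.5, 101, 82.1 and 99.1 FPKM in normal and 60.4 and 79.0 in PH BEC and did not pass (limma adjusted p 0.325). For 19 of the 27 tested both PH libraries were below all normal libraries, against 22% of all genes, in a list chosen on these values. Of the 37 genes, 9 of the 37 had a higher mean in PH than in normal hepatocytes. All 6 calls were lost without normal library 1 (adjusted p 0.101 to 0.122) and without normal library 4 (0.0717 to 0.110), and 3 without normal library 3 (0.0520 to 0.0600). After quantile normalization none passed and the median was -0.56.

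Id1 and Id3, inhibitors of helix-loop-helix factors that are induced by BMP signals, fell from high levels. Id1 was at 388, 242, 307 and 337 FPKM in normal and 124 and 125 in PH BEC (-1.33, SE 0.22, limma adjusted p 0.0283), and Id3 was at 319.6, 268, 296 and 262 in normal and 127 and 112 in PH BEC (-1.25, SE 0.18, limma adjusted p 0.0179). Both PH values lay far below the lowest normal value for each gene. Hepatocytes had 47.8 FPKM of Id3 in normal and 96.1 in PH liver. Tgfbi, a matrix protein induced by TGF-beta, was at 4.97, 4.91, 5.99 and 4.49 and then 1.83 and 1.29 FPKM. In a list of 14 BMP and TGF-beta targets, also chosen after seeing values and no support for a group change, these 3 of 10 tested fell and the median was -0.63. Over all genes tested 1.57% fell, and the median was -0.12. Bmyc, a relative of Myc that is highest in BEC among normal sorts, was at 115, 140.0, 87.3 and 122 FPKM and then at 44.6 and 45.6 (-1.32, SE 0.21, limma adjusted p 0.0234). Wls, the carrier for secreted Wnt proteins, was at 26.7, 26.4, 24.3 and 23.0 and then 12.7 and 10.5 (-1.05, SE 0.16, limma adjusted p 0.0210). Normal levels of Wls were higher in NPD (190 FPKM), HSC (164), Thy1 cells (125) and LSEC (99.3), and the part of such cells in its fall was not tested. Id1, Id3, Tgfbi and Bmyc did not pass without normal library 1 (adjusted p 0.0565 to 0.0908), nor did Id1, Tgfbi and Bmyc without normal library 4 (0.0528 to 0.0675).

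**Figure D5:**
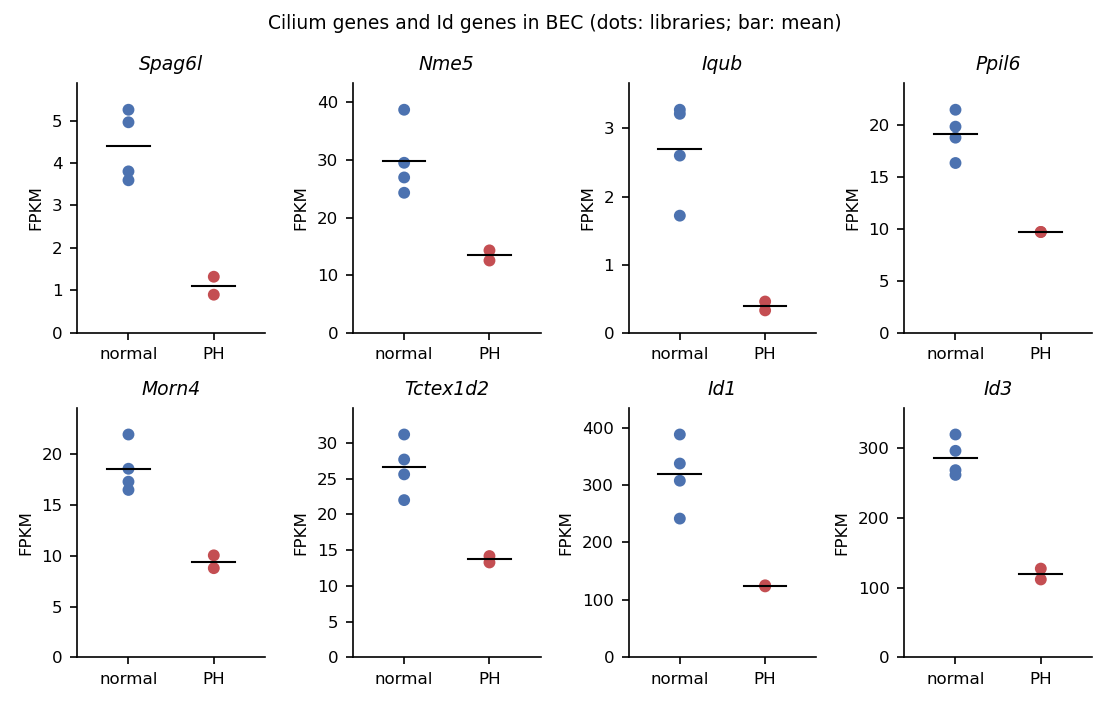
FPKM of 6 genes from the cilium list and of Id1 and Id3 in BEC, with 1 dot for each library and a bar at the group mean. In every panel both PH libraries (red) lie below all 4 normal libraries (blue), as for Id1 at 124 and 125 against 242 to 388 FPKM.

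Metabolic lists gave few calls. Of 18 tested genes of cholesterol synthesis none passed, 17 were negative and the median was -0.73. Msmo1, a sterol oxidase, was at 184, 383, 168 and 144 FPKM in normal and 75.1 and 91.6 in PH BEC (limma adjusted p 0.132), and Sqle, the squalene oxidase, at 158, 292, 149 and 116 in normal and 103 and 119 in PH BEC (limma adjusted p 0.443). Normal library 2 was the highest for both, and without it the list median was -0.42. None of 21 respiratory chain, 28 ribosomal protein or 19 heat shock and unfolded protein genes passed, with medians of 0.01, -0.18 and 0.10. Of 12 glycolysis genes 1 fell, Ldha, at 12.3, 67.3, 21.2 and 18.5 FPKM in normal and listed at 0 in both PH libraries. Hepatocytes had 405 FPKM of Ldha in normal and 1163 in PH liver.

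Among the 4386 tested genes at 10 FPKM or more in hepatocytes, most of the 20 rises and some of the 44 falls were between 0 and a measured level. Of the 20 rises 12 were listed at 0 in all 4 normal BEC libraries, among them Trf (157 and 401 FPKM in PH) and Gstp1 (43.9 and 37.8), which encode a serum iron carrier and a glutathione transferase. Of the 44 falls 13 were listed at 0 in both PH libraries, among them Mgst1, a microsomal glutathione transferase (109.9, 120.1, 189.6 and 283 FPKM in normal), Lcn2, a secreted defence protein (121, 174, 114 and 105 FPKM), and Apcs, an acute phase protein (42.8, 73.0, 42.6 and 55.7 FPKM). The hepatocyte mean was lower after PH for 18 of the 20 rises and higher for 29 of the 44 falls. Lcn2 had 7.34 FPKM in normal and 5088 FPKM in PH hepatocytes, and Trf 12561 and 11203. The same levels in normal and PH hepatocytes were 1811 and 857 FPKM for Gstp1, 4721 and 7558 for Mgst1, and 118 and 1778 for Apcs. No fold change is given for these, and the part of the hepatocyte level in their zeros was not tested.

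The BEC and cBEC responses were compared gene by gene. The difference of responses passed in 0 of 14491 genes (0%) by limma, with 252 at an unadjusted p under 0.05 and a smallest adjusted p of 1. With all 20 groups in the fit 1 gene passed, the microRNA entry Mir5110, at 1.35 and 8.57 FPKM in PH BEC and listed at 0 in all normal BEC and all cBEC libraries. Of the 10 rises low in hepatocytes, all had the same sign in cBEC and 4 passed there in the fit of the duct sorts (0.697% of all genes passed in cBEC, and 0.221% rose). Cftr was at 13.2, 22.5, 17.9 and 16.1 FPKM in normal and 35.9 and 50.3 FPKM in PH cBEC, and Pdgfb at 22.2, 25.3, 21.6 and 19.0 FPKM in normal and 49.6 and 50.7 FPKM in PH cBEC. The difference between the responses of BEC and cBEC was -0.19 (SE 0.31) for Cftr and -0.20 (SE 0.29) for Pdgfb on the log2 scale. Of the 158 falls low in hepatocytes, 155 had the same sign in cBEC and 13 passed (0.476% of all genes fell in cBEC). Among the exceptions were Tctex1d2 (0.21 in cBEC, SE 0.26) and Tgfbi (0.35 in cBEC, SE 0.55). The share of all genes with the same sign in both sorts was not counted. By its treatment tag, the first PH cBEC library would be a normal one, and its title was followed here. Without it, a count added after the data were seen, the difference of responses still passed in 0 genes, 9 of the 10 rises and 154 of the 158 falls had the same sign in cBEC, and 3 and 9 passed (0.637% of all genes). The PH cBEC library that remains is assumed there to vary like the other groups. In NPD, where 11.1% of genes rose and 5.53% fell, 8 of the 10 rises and 131 of the 158 falls had the sign seen in BEC, and 3 and 36 passed. Cftr differed in sign: it was at 15.9 and 14.2 FPKM in normal and 9.78 and 8.42 in PH NPD, a difference of responses of 1.74 (SE 0.34, limma adjusted p 0.00682).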

How the data were processed

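The authors deposited 1 table of FPKM for the series, by its name, in which columns are libraries and the 36141 rows are RefSeq transcripts of 24478 symbols. The submitters' processing notes name CASAVA 1.8.2, Bowtie 1.0.0 and mm9, without their roles. Where a symbol had several rows, the most abundant over the whole series stood for it, and groups follow the titles. Read depth is unknown, so no counting interval is given. Group differences on the log2(FPKM + 1) scale came from limma 3.58.1 (R 4.3.3), with trend and robust variances, two-sided, with Benjamini-Hochberg adjustment. Genes with at least 1 FPKM in at least 2 fitted libraries were tested. The fits were also run on simulated data with independent noise, in which only genes of higher level were changed. That run says nothing on the calls of low genes. Differences of responses used the 16 duct libraries. Named genes are the 10 largest rises and falls of at least 1 (log2) under 10 FPKM in hepatocytes, the 4 largest of the others, up to 4 called members of each list or the 2 most abundant, the 4 duct markers and the 3 smallest p of each difference of responses; other named genes were chosen after seeing their values. The members, 34 lists and rules were chosen with earlier results of these data known, and 2 lists were added after seeing values. Some genes under this rule are not reported here. Promoters came from RefSeq. Figures used Python 3.11.15 and matplotlib 3.10.9.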

Additional observations from a re-analysis of the deposited data

Results flagged for a closer look

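Of 147 values examined in the normal BEC libraries, 8 had 1 library far from the other 3 by Dixon's test, and chance flags about 1 in 20 groups. Normal library 2 stood apart in 6 of them: it was high for Aurka (3.38 FPKM), Hbb-b1 (4.70 FPKM), Ldha (67.3 FPKM) and Msmo1 (383 FPKM), low for Tgfb2 (21.6 FPKM), and high in the mean log2 level of the erythroid markers (0.91). Normal library 1 was low for Cdh6 (21.7 FPKM), and normal library 3 was high for Slpi (40.9 FPKM). The change after PH differed between BEC and NPD in 918 genes by limma on the interaction of sort and surgery.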

How the results depend on the processing

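The p-values rest on 2 PH libraries, and counts of genes past the threshold moved with the processing while the excess of falls stayed in each count that follows. Against 232 calls (202 falls), a pseudocount of 0.1 gave 481 (441 falls), no filter 53 (32), a minimum of 5 FPKM 118 (18 rises, 100 falls), quantile normalization 62 (37 falls), the duct sorts in a single fit 112 (86 falls), and genes highest in a duct sort 13 (3 rises, 10 falls). All 20 groups in a single fit gave 50 rises. Leaving out 1 library gave 6 to 387 calls, with 0 to 86 rises and 6 to 301 falls, and leaving out normal libraries 2 and 3 gave 695 (126 rises, 569 falls), among them 229 of the 232. For the BEC and cBEC difference, all 20 groups in a single fit gave 1 gene (1 higher), and every removal of 1 library gave 0. For the BEC and NPD difference, a pseudocount of 0.1 gave 111 higher, quantile normalization 282 higher and 430 lower, and genes low in hepatocytes 584 (458 lower). Leaving out 1 library there gave 253 to 969 genes, 56 to 180 higher and 197 to 789 lower. Fewer genes or libraries enter the restricted fits, and otherwise the cause was not tested.

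Genes that changed sign had not passed the test. Upper-quartile scaling gave Ctnnb1 0.0046, Epcam 0.027, Hnf4a 0.039, Pkhd1 0.026 and Rpl8 0.0012, and quantile normalization gave Hnf4a 0.13, Pkhd1 0.010 and Spp1 -0.083. Without normal libraries 2 and 3 the values were Cdk4 0.0082, Hes1 -0.087, Rpl8 0.054 and Spp1 -0.082. With 1 library left out, the ranges were -0.078 to 0.14 for Atp5a1, -0.21 to 0.069 for Cdk4, -0.14 to 0.023 for Ctnnb1, -0.19 to 0.60 for Egr1, -0.11 to 0.022 for Epcam, -1.56 to 0.045 for Hbb-b1, -0.058 to 0.25 for Hes1, -0.077 to 0.081 for Hnf4a, -0.11 to 0.49 for Krt19, -0.17 to 0.061 for Pkhd1, -0.21 to 0.15 for Rpl8 and -0.065 to 0.12 for Spp1.

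Whether replicate numbers pair the libraries was not settled. Deviations of same-numbered BEC and cBEC libraries correlated at -0.07 to 0.17 in normal and 0.35 in PH. Those of normal and PH BEC correlated at 0.08 and 0.13. With 2 PH libraries per sort the deviations mirror each other, so both PH pairs have the same value. Differently numbered libraries were not compared. With the number as a replicate block 1027 genes passed (262 higher, 765 lower). Only numbers found in both groups inform that contrast, so it rests on normal and PH libraries 1 and 2, and the other normal libraries do not enter it. The changes of sign there were Atp5a1 -0.23, Atp5b -0.041, Cdh1 -0.050, Hes1 -0.014, Krt19 -0.39, Pkhd1 0.020 and Spp1 -0.00099.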
